A study of Mus musculus with 8 samples.

Results

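The comparison described here set C3H10T1/2 cells labelled as carrying a lentiviral shRNA against Nap1l2 (KD-Nap1l2) beside cells labelled as non-target control (NC), both harvested at day 0, before osteogenic induction. It rests on 4 of the 8 RNA-seq libraries of the series, 2 libraries labelled KD-Nap1l2 and 2 labelled NC, and was described across the 13470 genes that passed the filter on low counts out of 18605 listed. C3H10T1/2 is a mesenchymal line derived from C3H mouse embryo, grown in DMEM with 10% fetal bovine serum. The other 4 libraries, 2 labelled NC-7d and 2 labelled KD-Nap1l2-7d, came from cells of the same kinds that had been induced toward bone for 7 days, and are used here only for the estimate of spread and for comparison. The sources used here do not state which shRNA was sequenced, whether each arm was a pool or a clone, or whether replicates were separate cultures, so the p-values measure only the spread between these libraries.

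Nap1l2 belongs to the nucleosome assembly protein family, histone chaperones that carry H2A-H2B dimers and take part in placing and removing nucleosomes. Interferons, secreted in response to foreign nucleic acid or immune activation, act through Jak kinases and Stat factors to raise antiviral genes, and interferon-gamma in particular raises the machinery that loads peptides onto MHC molecules. Atf4 is a transcription factor that is translated when amino acids are short or the endoplasmic reticulum is stressed and that raises genes of amino acid synthesis and import.

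The 4 libraries held between 17808110 and 19427359 counts, so that 3 counts, taken as the limit of detection, correspond to 0.154 to 0.168 CPM (counts scaled to the library total). The Pearson correlation of log counts was 0.986 between the NC libraries, 0.975 between the KD-Nap1l2 libraries and 0.961 to 0.977 between the groups. The KD-Nap1l2 libraries were thus less alike than the NC libraries: 1045 genes stood at least 2-fold apart between them, against 574 between the NC libraries. The difference took in the glycolysis and hypoxia genes. Relative to the NC mean, the median of the 31 tested members of that list was -0.99 (log2) in KD-Nap1l2 replicate 1 and 1.0 in KD-Nap1l2 replicate 2. Slc2a1, the main glucose transporter of most cells, gave 1429 and 1677 counts in NC against 1039 and 5202 in KD-Nap1l2, so the KD-Nap1l2 libraries lay on both sides of the controls. The list median over both was 0.42, but it moved to -1.0 when KD-Nap1l2 replicate 2 was left out and to 0.97 when replicate 1 was, and no direction is given for this list. Egln3, a prolyl hydroxylase that is itself a hypoxia target, was the exception within it, with 16 and 19 counts in NC against 0 and 1 in KD-Nap1l2.

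The targeted gene was barely sequenced in either group. Nap1l2 gave 3 and 3 counts in the NC libraries and 2 and 7 in the libraries labelled KD-Nap1l2, so its knockdown was not visible and could not be assessed at this depth. The fitted log2 fold change was 0.64 with a standard error of 0.98 (adjusted p = 0.812, edgeR's quasi-likelihood test), and it turned to -0.53 without KD-Nap1l2 replicate 2. These counts neither bear out nor contradict the labels, and the libraries are called here by their labels. Among the relatives, Nap1l1 gave 7777 and 8321 counts in NC against 9200 and 7778 in KD-Nap1l2 (log2 fold change 0.15 ± 0.14 SE), and Nap1l4 gave 1946 and 1946 against 1891 and 1885 (0.03 ± 0.11). Nap1l3 and Nap1l5 stayed at or under 3 counts in each of the 4 libraries. Over the 29 tested members of the wider list of NAP1 proteins and histone chaperones, 18 had a positive and 11 a negative fold change with a median of 0.08, and none passed the adjusted threshold. Cabin1, a subunit of the complex that deposits histone H3.3, was the only member with an unadjusted p under 0.05 (log2 fold change -0.43 ± 0.18).

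In edgeR's quasi-likelihood test, 11 genes passed a Benjamini-Hochberg adjusted p of 0.05, which is 0.0817% of the genes tested. Relative to NC, the KD-Nap1l2 label went with a higher level of 3 (0.0223%) and a lower level of 8 (0.0594%). The number depended on the test and on single libraries. DESeq2 called 460 of the 12947 genes it adjusted (3.55%), 194 higher (1.5%) and 266 lower (2.05%), with all 11 among them. Leaving out a control library of day 0 brought the edgeR count to 3 (replicate 1) or 0 (replicate 2), and leaving out a KD-Nap1l2 library brought it to 562 (replicate 1) or 0 (replicate 2). The edgeR count for day 0 also moved when a library of day 7 was left out of the shared fit. It rose without either NC-7d library and fell without either KD-Nap1l2-7d library. The counts of 0 came with 1229 and 1390 genes at an unadjusted p under 0.05. At an unadjusted p under 0.05 edgeR gave 1852 genes (13.7%), 946 higher (7.02%) and 906 lower (6.73%), and these shares are the background for the gene lists below. The groups did not overlap and differed at least 2-fold for 344 genes in the higher (2.55%) and 482 in the lower direction (3.58%). The median log2 fold change over all genes tested was 0.01, and the median of each chromosome lay between -0.05 (chromosome 2) and 0.06 (chromosome 12).

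**Figure D1:**
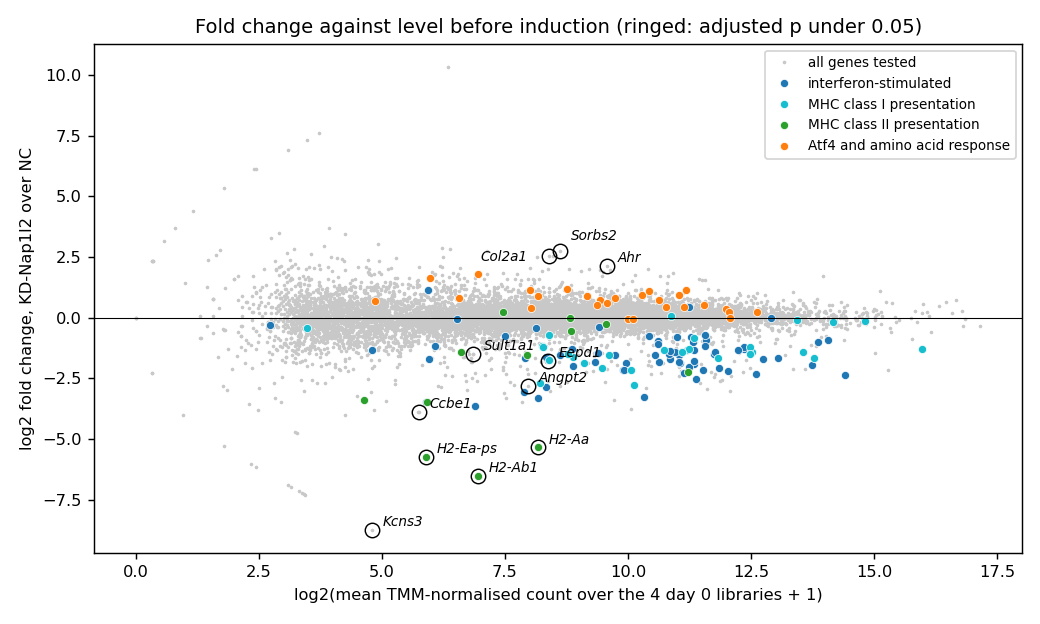
Each point is a gene, with its mean TMM-normalised count over the 4 day 0 libraries on a log2 scale (horizontal) and its log2 fold change, KD-Nap1l2 over NC (vertical). Rings mark the 11 genes past the adjusted threshold, and the interferon-stimulated and MHC genes lie almost all below 0 while the Atf4 list lies mostly above it.

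3 of the 8 lower genes encode chains of MHC class II, the cell-surface molecule that presents peptides to helper T cells. H2-Ab1, the beta chain of I-A (chromosome 17, 34263227 to 34269418, GRCm38.p6), gave 160 and 348 counts in NC against 1 and 4 in KD-Nap1l2. H2-Aa, its alpha chain (chromosome 17, 34282744 to 34287823), gave 426 and 743 in NC against 14 and 13 in KD-Nap1l2. H2-Ea-ps (chromosome 17, 34341952 to 34344645), the E alpha chain, is a pseudogene in the reference strain, and gave 87 and 153 in NC against 3 and 1 in KD-Nap1l2. In each of the 3 both control libraries stood far above both KD-Nap1l2 libraries. The log2 fold changes were -6.51 ± 0.62 (SE, adjusted p = 0.0187), -5.34 ± 0.52 (adjusted p = 0.0187) and -5.74 ± 0.69 (adjusted p = 0.0478). For H2-Ea-ps the ratio of summed counts, NC over KD-Nap1l2, was 57.1, with an exact 95% interval of 22 to 211 that covers counting error only. Per length, mean FPKM of H2-Aa was 29.1 in NC and 0.715 in KD-Nap1l2, and that of H2-Ab1 11.3 and 0.12. Class II is made above all by antigen-presenting cells of the blood lineage, and summed over 21 hematopoietic markers the libraries held 396 and 459 counts in NC against 387 and 449 in KD-Nap1l2. Most of these counts came from Cd14, Lyz2 and Cd68, and Cd3e was at 0 in each of the 4 libraries. The part of such cells in the class II values was not tested.

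The other lower genes had varied roles. Ccbe1 (chromosome 18, 66056855 to 66291838), a secreted protein needed for lymphatic vessel growth through Vegfc, gave 92 and 114 counts in NC against 6 and 7 in KD-Nap1l2. It had the smallest adjusted p of all genes (log2 fold change -3.88 ± 0.26 SE, adjusted p = 0.00671). Angpt2 (chromosome 8, 18690263 to 18741562), a ligand of the Tek receptor that loosens vessel walls, gave 522 and 380 counts against 68 and 55 (log2 fold change -2.81 ± 0.26, adjusted p = 0.0187). The spread within either pair was small beside the gap between the groups. Kcns3 (chromosome 12, 11090202 to 11151168), a modifying subunit of voltage-gated potassium channels, gave 60 and 51 counts in NC and none in KD-Nap1l2, at least 17.6-fold lower when the KD-Nap1l2 libraries are set to the floor of 3 counts each (adjusted p = 0.0189). Eepd1 (chromosome 9, 25481513 to 25604110), a nuclease with a role at stalled replication forks, gave 560 and 507 counts against 171 and 125 (log2 fold change -1.78 ± 0.18). Sult1a1 (chromosome 7, 126672865 to 126690443), a sulfotransferase of phenols and drugs, gave 177 and 174 against 57 and 61 (-1.5 ± 0.15). Both fell with an adjusted p of 0.0187. By counts alone, 3 genes had at least 30 counts in both libraries of 1 group and at most 3 in both of the other: H2-Ea-ps, Kcns3 and Sftpb, a surfactant protein with 37 and 34 counts in NC against 2 in each KD-Nap1l2 library (adjusted p = 0.254). All 3 were the higher in NC.

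3 genes rose. Ahr (chromosome 12, 35497979 to 35534989), the receptor for dioxin-like and tryptophan-derived ligands, gave 318 and 264 counts in NC against 1012 and 1428 in KD-Nap1l2, a 4.42-fold difference (log2 fold change 2.14 ± 0.22 SE, adjusted p = 0.0187). Sorbs2 (chromosome 8, 45507788 to 45827906), an adaptor of the actin cytoskeleton at focal contacts, gave 89 and 120 against 523 and 815 (2.76 ± 0.31, adjusted p = 0.0315). Col2a1 (chromosome 15, 97975602 to 98004724), the collagen chain that defines cartilage matrix, gave 98 and 104 against 553 and 582 (2.56 ± 0.31, adjusted p = 0.0478). The pairs did not overlap for any of these 3 genes, as for 22% of all genes tested in this direction.

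**Figure D2:**
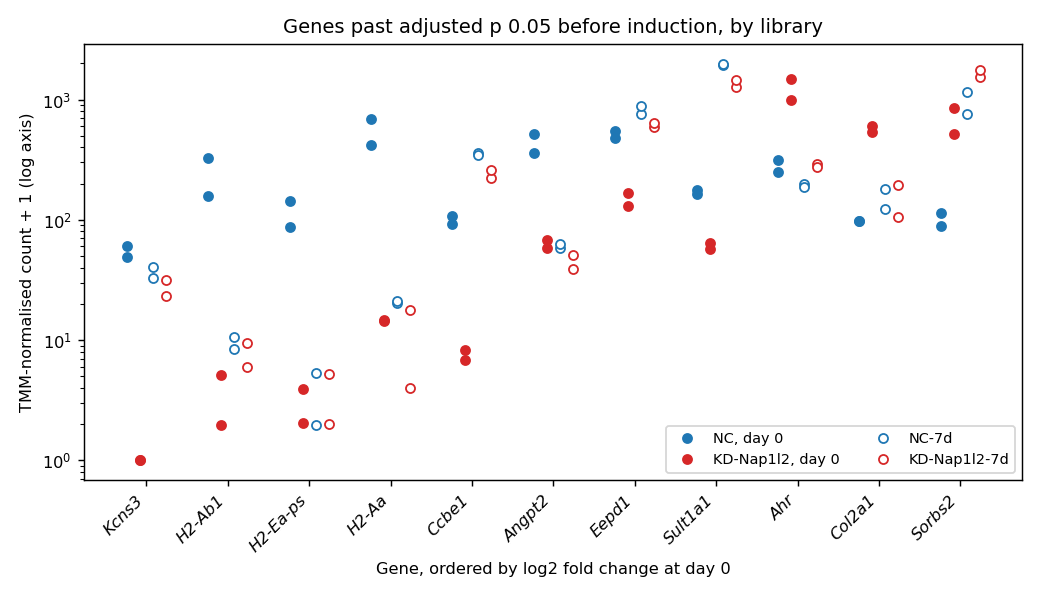
TMM-normalised counts plus 1 (log axis) of the 11 genes past the adjusted threshold, 1 point per library, with day 0 libraries filled and day 7 libraries open, NC in blue and KD-Nap1l2 in red. The filled pairs are far apart for all 11 genes, whereas the open pairs lie close together or overlap, and the MHC class II genes are low in all 4 day 7 libraries.

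Genes just outside the threshold extended both directions. Among well-counted genes without overlap, Igf2, a fetal growth factor, had 18346 and 16787 counts in NC against 3418 and 4338 in KD-Nap1l2 (log2 fold change -2.10 ± 0.27, adjusted p = 0.0617). Ccl2, the main monocyte chemokine, had 3983 and 3797 against 1837 and 1234 (-1.28 ± 0.17), and its neighbour Ccl7 had 2257 and 2432 against 1256 and 1228 (-0.84 ± 0.12). Both chemokines had an adjusted p of 0.0638 by edgeR and passed in DESeq2. Phactr1, a regulator of actin and protein phosphatase 1, had 494 and 457 against 129 and 57 (-2.29 ± 0.31, adjusted p = 0.0638). In the other direction, Hoxc6, a homeobox gene of the trunk, had 25 and 30 counts in NC against 100 and 130 in KD-Nap1l2 (2.14 ± 0.29, adjusted p = 0.0638). Sox6, a cartilage transcription factor, had 86 and 120 against 245 and 239 (1.31 ± 0.20, adjusted p = 0.0736). Lurap1l, Ppp1r1b, Arhgap20, Pdgfc, Mfsd6, Fyn and Efnb1 completed the 9 genes with a positive change ranked next after the called ones, with log2 fold changes from 0.82 (Fyn) to 2.05 (Arhgap20) and adjusted p between 0.0646 and 0.0752. Each of these genes had an adjusted p under 0.05 in DESeq2.

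The lists with medians furthest from 0 were those of interferon and MHC genes. The 4 lists, of interferon-stimulated genes, interferon-gamma-induced genes, MHC class I presentation and MHC class II presentation, held 141 tested genes between them. Of these 134 had a negative and 7 a positive fold change, 115 were lower and 1 higher at an unadjusted p under 0.05 (background 6.73% and 7.02%), and the counts of 124 did not overlap between the groups in this direction (background 21.2%). edgeR's adjusted threshold was passed by 3 of the 141, the class II chains above. DESeq2 called 65 of them lower, out of its 266 lower genes. The count of 115 became 69 when NC replicate 2 or KD-Nap1l2 replicate 2 was left out, an alternative added after the data were seen.

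The 68 interferon-stimulated genes centred on a log2 fold change of -1.53 (median), with 55 lower and 1 higher at an unadjusted p under 0.05 and 21 called lower by DESeq2. Oas3, which makes the 2-5A messenger that activates RNase L, had 272 and 920 counts in NC against 78 in each KD-Nap1l2 library (log2 fold change -2.84 ± 0.59, adjusted p = 0.112). Rsad2, the antiviral enzyme viperin, had 456 and 631 against 61 and 44 (-3.30 ± 0.81, adjusted p = 0.151). Irf7, the factor that drives interferon-alpha genes, had 2716 and 5111 against 1087 and 433 (-2.30 ± 0.69, adjusted p = 0.206). Isg15, a ubiquitin-like modifier, had 5010 and 7541 against 2172 and 682 (-2.08 ± 0.82, adjusted p = 0.318). In all 4 genes the control libraries lay above the KD-Nap1l2 libraries. For Oas3, Irf7 and Isg15, libraries of the same group also stood well apart. Uba7, the Isg15-activating enzyme, had a smaller standard error, with 874 and 1235 against 344 and 221 (-1.83 ± 0.26, adjusted p = 0.0642). Sp100, a nuclear body protein, had 3388 and 5234 against 1387 and 826 (-1.89 ± 0.37). Ifitm1, a membrane protein that restricts viral entry, was the 1 member higher at an unadjusted p under 0.05, with 35 and 43 counts against 60 and 102 (1.14 ± 0.36). Rsad2, Irf7, Isg15 and Ifitm1 were named after their values were seen.

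The 36 interferon-gamma-induced genes had a lower median, -2.18, with 31 at an unadjusted p under 0.05, all lower, and 19 called lower by DESeq2. Irf1, the transcription factor at the head of the interferon-gamma response, had 3323 and 4128 counts in NC against 1436 and 1379 in KD-Nap1l2 (-1.33 ± 0.21, adjusted p = 0.0775). Gbp2b, a guanylate-binding protein of cell-autonomous defence, had 3780 and 7891 against 887 and 544 (-2.95 ± 0.50), and the serpin Serpina3f had 1463 and 1885 against 548 and 438 (-1.69 ± 0.28). Ciita, the coactivator that switches on MHC class II genes, had 57 and 172 against 14 and 5 (-3.49 ± 0.65, adjusted p = 0.1 by edgeR and 0.000107 by DESeq2).

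The class II list held 12 tested genes with a median of -1.88, 9 of them lower at an unadjusted p under 0.05. Over the alternative settings that median ranged from -2.12 to -0.55. The value of -0.55 came with at least 10 counts required in every library, a filter that drops the 3 called chains. Beside the 3 called chains, H2-Eb1 had 43 and 48 counts in NC against 3 and 5 in KD-Nap1l2 (-3.39 ± 0.56), and Cd74, the invariant chain that escorts class II through the cell, had 3669 and 4576 against 1117 and 565 (-2.23 ± 0.30, adjusted p = 0.0638). Cd74 was by far the most abundant of the list per length, at a mean FPKM of 172 in NC and 37.5 in KD-Nap1l2. The subunits of the RFX complex that binds class II promoters, Rfx5, Rfxap and Rfxank, had log2 fold changes of -0.25, 0.22 and -0.02 and none of them had an unadjusted p under 0.05. The class I list held 29 tested genes with a median of -1.39, 24 lower at an unadjusted p under 0.05 and 21 called lower by DESeq2. It spanned the path of a peptide to the surface: the proteasome subunit Psmb8 had 463 and 608 counts against 99 and 59 (-2.69 ± 0.47), the peptide pump subunit Tap2 had 2684 and 4317 against 1533 and 1138 (-1.31 ± 0.25), the peptide editor Tapbpl had 359 and 725 against 175 and 135 (-1.73 ± 0.31), and the light chain B2m had 84629 and 107483 against 38647 and 35086 (-1.31 ± 0.26). Class I chains, and the Gbp and Oas families above, hold close paralogs, and the C3H cells carry other MHC alleles than the reference strain, so the split of counts within these families is uncertain. General chaperones of the same path, Calr, Canx and Pdia3, had log2 fold changes of -0.12, -0.09 and -0.16.

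Genes above the response did not show the same size of difference. The 23 tested interferon receptors and sensors had a median of 0.03, with 12 positive and 11 negative changes. Ifnar1 had 2425 and 2446 counts in NC against 2383 and 2377 in KD-Nap1l2 (log2 fold change 0.04 ± 0.11), and Ifngr1 had 1202 and 1190 against 1048 and 1377 (0.10 ± 0.17). Irf5 (-1.38 ± 0.33) and Tlr3 (-1.36 ± 0.39) were the members with an unadjusted p under 0.05. None of the 11 interferon genes in the table passed the filter, and the highest count of any of them in a day 0 library was 6. Summed over those 11 genes, the libraries held 5 and 15 counts in NC against 7 and 5 in KD-Nap1l2.

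**Figure D3:**
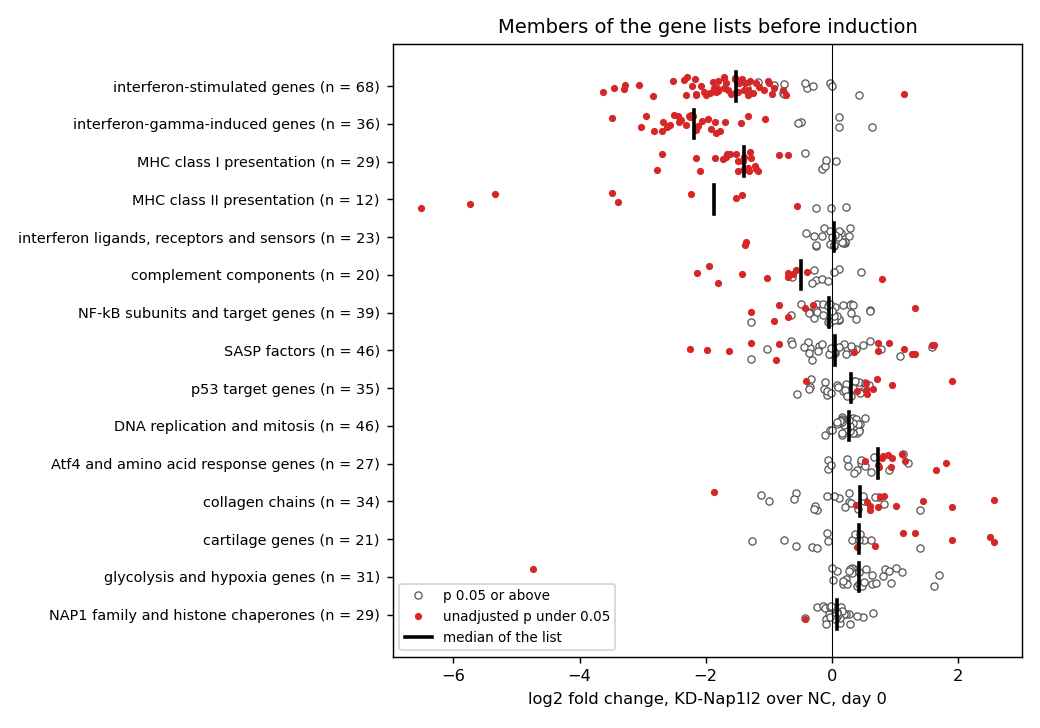
Log2 fold change, KD-Nap1l2 over NC at day 0, of each tested member of 15 gene lists, with filled red points for an unadjusted p under 0.05, open points for the rest and a black bar at the list median. Medians are -1.53, -2.18, -1.39 and -1.88 for the 4 interferon and MHC lists, 0.03 for receptors and sensors and 0.73 for the Atf4 list.

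The promoters of these genes are known for short motifs, and reference sequences from RefSeq (GRCm38.p6, 250 bases before to 50 after each start) were searched on both strands. Promoters were matched for 10651 of the 13470 tested genes. The core of the interferon-stimulated response element, GAAANNGAAA, was found for 28 of the 55 matched interferon-stimulated genes (50.9%) and 14 of the 24 matched interferon-gamma-induced genes (58.3%), against 3.89% of all matched genes tested and 3.44% of all promoters of the table. The palindromic core of the gamma-activated site, TTCNNNGAA, was found for 11 of the 24 interferon-gamma-induced genes (45.8%), against 8.29% of matched genes tested and 8.3% of all promoters. The core of the Y box, GATTGG, was found for 7 of 7 matched class II genes and 13 of 23 class I genes (56.5%), and also for 14 of 24 Atf4 list genes (58.3%), against 23.9% of matched genes and 16.1% of all promoters. The core of the C/EBP-ATF response element, TGATGNAA, was found for 10 of the 24 matched Atf4 list genes (41.7%), against 2.99% and 3.97%. The first 2 motifs can overlap each other, and a match describes the letters of the window only. In the class I list the interferon-stimulated response element core was found for 5 of 23 matched genes (21.7%). The following promoters come from the 5 lists and were picked among members that hold the motif, so they do not show how common it is. The matched core is in capitals. It is an interferon-stimulated response element in Oas3 and B2m and a gamma-activated site in Irf1. It is a Y box in H2-Aa and a C/EBP-ATF response element in Asns.
Oas3: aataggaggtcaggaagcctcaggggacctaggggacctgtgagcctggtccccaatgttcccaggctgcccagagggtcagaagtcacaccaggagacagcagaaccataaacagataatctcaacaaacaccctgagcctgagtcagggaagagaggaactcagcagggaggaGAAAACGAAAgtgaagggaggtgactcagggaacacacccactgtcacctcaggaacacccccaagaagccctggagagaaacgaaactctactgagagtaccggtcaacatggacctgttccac
Irf1: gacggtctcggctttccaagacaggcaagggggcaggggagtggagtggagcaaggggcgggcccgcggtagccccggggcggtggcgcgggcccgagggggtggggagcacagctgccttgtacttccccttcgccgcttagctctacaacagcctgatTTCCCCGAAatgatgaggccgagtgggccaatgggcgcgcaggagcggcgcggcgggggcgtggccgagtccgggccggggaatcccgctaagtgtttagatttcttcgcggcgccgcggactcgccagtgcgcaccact
B2m: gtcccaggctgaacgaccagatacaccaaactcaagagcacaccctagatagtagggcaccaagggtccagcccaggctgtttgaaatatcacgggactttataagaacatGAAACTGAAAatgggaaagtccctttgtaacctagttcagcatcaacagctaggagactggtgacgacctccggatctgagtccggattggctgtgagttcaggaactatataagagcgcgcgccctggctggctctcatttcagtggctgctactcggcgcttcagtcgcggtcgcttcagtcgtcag
H2-Aa: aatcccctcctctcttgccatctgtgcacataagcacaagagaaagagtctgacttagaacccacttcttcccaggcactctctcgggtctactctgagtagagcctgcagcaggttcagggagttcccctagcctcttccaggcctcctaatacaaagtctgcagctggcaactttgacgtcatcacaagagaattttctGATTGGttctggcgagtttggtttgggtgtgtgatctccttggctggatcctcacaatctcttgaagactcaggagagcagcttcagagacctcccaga
Asns: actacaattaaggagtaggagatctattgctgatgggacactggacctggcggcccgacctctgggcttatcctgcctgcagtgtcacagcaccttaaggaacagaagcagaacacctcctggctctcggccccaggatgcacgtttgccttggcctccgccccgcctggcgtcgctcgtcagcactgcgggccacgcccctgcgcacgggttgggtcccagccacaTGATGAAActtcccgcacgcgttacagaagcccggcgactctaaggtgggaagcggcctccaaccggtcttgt
In the order shown they lie at chr5:120777610-120777909 (minus strand), chr11:53769764-53770063 (plus), chr2:122147437-122147736 (plus), chr17:34287774-34288073 (minus) and chr6:7693160-7693459 (minus). The cores begin 75, 90, 139, 49 and 23 bases before the annotated start.

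The Atf4 and amino acid response genes went the other way. Of 27 tested, 24 had a positive fold change, the median was 0.73, 12 were higher and none lower at an unadjusted p under 0.05 (background 7.02%), and DESeq2 called 6 higher. None passed edgeR's adjusted threshold. Psat1, of serine synthesis, had 1223 and 1785 counts in NC against 3448 and 2891 in KD-Nap1l2 (log2 fold change 1.15 ± 0.20, adjusted p = 0.0837). Asns, which makes asparagine and whose promoter is printed above, had 1442 and 1548 against 3007 and 2437 (0.93 ± 0.23), and the mitochondrial enzyme Pck2 had 878 and 892 against 1446 and 1791 (0.95 ± 0.24). Atf3, a stress factor downstream of Atf4, had 87 and 55 against 130 and 107 (0.80 ± 0.32). The list stood at 0.64 and 0.68 above the NC mean in the KD-Nap1l2 libraries, which were closer to each other here than in the glycolysis list. The count of 12 was 5 without NC replicate 1.

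Of 34 tested collagen chains 25 had a positive fold change, with a median of 0.45, and 11 were higher and 1 lower at an unadjusted p under 0.05. Col11a1, the partner of Col2a1 in cartilage fibrils, had 315 and 313 counts in NC against 1003 and 1223 in KD-Nap1l2 (1.90 ± 0.41, adjusted p = 0.119). Col23a1, a transmembrane collagen, was the chain lower at that p, with 2915 and 2576 against 936 and 502 (-1.87 ± 0.26, adjusted p = 0.0638). The collagen list stood at 0.16 in KD-Nap1l2 replicate 1 and 0.72 in replicate 2, and the count of 11 became 5 when NC replicate 2 was left out and 6 when KD-Nap1l2 replicate 2 was. Of 21 cartilage genes, 6 of them also collagen chains, 14 had a positive change, 7 were higher and none lower at an unadjusted p under 0.05, and the median was 0.42. In the osteoblast list 16 of 27 tested genes had a positive change, 1 was higher and none lower at an unadjusted p under 0.05, and the median was 0.08. Single members ranged from -1.64 to 1.86. The highest was Bglap2, with 10 and 13 counts in NC against 42 and 38 in KD-Nap1l2 (1.86 ± 0.81, adjusted p = 0.366 by edgeR). Dlx5, an early osteoblast homeobox gene, had 287 and 264 against 350 and 402 (0.52 ± 0.17, adjusted p = 0.240).

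Further lists placed the called genes in their pathways. Around Ahr, 16 pathway genes were tested and 5 had a positive change. Apart from Ahr and Sult1a1 only Aldh3a1, an aldehyde dehydrogenase induced by Ahr, had an unadjusted p under 0.05, with 1218 and 926 counts in NC against 805 and 757 in KD-Nap1l2 (-0.39 ± 0.17). Among 22 vessel and lymphatic growth factors 7 were higher and 3 lower at an unadjusted p under 0.05, and the median was 0.09. Pdgfc had 24 and 32 counts against 81 and 70 (1.5 ± 0.23, adjusted p = 0.0736), and Tek, the receptor of Angpt2, had 29 and 61 against 102 and 85 (1.13 ± 0.39). The 20 complement components had a median of -0.49, with 10 lower and 1 higher at an unadjusted p under 0.05. Cfb, of the alternative pathway, had 191 and 314 against 62 and 47 (-2.13 ± 0.31, adjusted p = 0.0646). DESeq2 called 5 of the complement genes lower. Of 15 genes of retinoic acid metabolism 4 were lower and none higher at an unadjusted p under 0.05, among them the dehydrogenase Rdh10, with 211 and 186 against 128 and 95 (-0.77 ± 0.28).

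The 46 tested factors of the senescence-associated secretory phenotype had a median of 0.04, with 9 higher and 6 lower at an unadjusted p under 0.05, and the 39 NF-kB subunits and targets had a median of -0.05, with 1 higher and 6 lower. Plat, tissue plasminogen activator, had 576 and 737 counts against 1088 and 1228 (0.90 ± 0.18, adjusted p = 0.104), opposite in sign to Ccl2 of the same list. The NF-kB target Birc3 had 445 and 561 against 330 and 259 (-0.70 ± 0.15, adjusted p = 0.121). Of 35 p53 target genes 25 had a positive change, 8 were higher and 1 lower at an unadjusted p under 0.05, and the median was 0.30. The death receptor Tnfrsf10b had 786 and 919 counts against 1240 and 1284 (0.64 ± 0.12) and Psrc1 had 623 and 612 against 952 and 974 (0.71 ± 0.14), each with an adjusted p of 0.1. Of 25 tested CDK inhibitors and retinoblastoma family genes 20 had a positive change, 4 were higher and none lower at an unadjusted p under 0.05, and DESeq2 called 3 higher. Cdkn1a, the CDK inhibitor p21, had 5343 and 4779 counts in NC against 7485 and 10933 in KD-Nap1l2 (0.94 ± 0.22, adjusted p = 0.140 by edgeR and 0.00211 by DESeq2). Over 17 alternative settings the log2 fold change of Cdkn1a ranged from 0.59 to 1.23, the highest without KD-Nap1l2 replicate 1. Rb1, the retinoblastoma protein, had 760 and 701 against 1022 and 1108 (0.62 ± 0.14, adjusted p = 0.131). Of 46 genes of DNA replication and mitosis 44 had a positive change, with a median of 0.26, none of them at an unadjusted p under 0.05. Within the NC pair that list stood 0.15 to either side of the mean, and in KD-Nap1l2 at 0.32 and 0.23. Adipocyte genes (23 tested, median 0.15), smooth muscle and cytoskeleton genes (28, median 0.13), cholesterol synthesis genes (23, median 0.06) and immediate early genes (23, median -0.18) had medians of small size, with at most 4 members in either direction at an unadjusted p under 0.05. By edgeR Sorbs2, a member of the smooth muscle list, passed the adjusted threshold and no other member of these 4 lists did, while DESeq2 also called 1 adipocyte gene higher and 2 lower.

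Most defining markers of other cell types had few counts. Of 21 hematopoietic markers listed, 7 were tested, and their median was -0.21. The pan-leukocyte gene Ptprc had 1 count in each NC library and 4 and 0 in KD-Nap1l2, the T cell gene Cd3e had none, and the macrophage genes Csf1r and Itgam had at most 21 counts in any day 0 library. Cd68 (56 to 96 counts), Lyz2 (53 to 103) and Cd14 (134 to 218) were the marker genes with more, and the pairs overlapped for each. Of 7 endothelial markers tested, 2 had a positive and 5 a negative fold change, with a median of -0.16. In edgeR's test 1 was lower and 1 higher at an unadjusted p under 0.05. The lower was Cdh5, the junction cadherin of vessels, with 17 and 17 counts in NC against 1 and 0 in KD-Nap1l2 (-4.71 ± 1.43, adjusted p = 0.215). The higher was Tek, with 29 and 61 against 102 and 85 (1.13 ± 0.39). Cldn5 had at most 1 count. Summed over their lists, the endothelial markers held 1476 and 1563 counts in NC against 1516 and 1443 in KD-Nap1l2, most of them from Eng, which the mesenchymal list also holds (1172 and 1349 against 1265 and 1029). The epithelial markers held 86 and 120 against 179 and 105. Among epithelial markers Epcam had at most 1 count and Cdh1 had 63 and 92 against 150 and 98. The mesenchymal markers were well counted, 17 of 18 tested, with a median of -0.01. Within that list Thy1 had 62 and 51 counts against 121 and 183 (1.5 ± 0.30, adjusted p = 0.108) and Lum had 2360 and 1839 against 876 and 531 (-1.52 ± 0.37, adjusted p = 0.147). A change in RNA per cell and a change in the share of cells that make a transcript cannot be told apart in such bulk libraries.

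The day 7 libraries allow the same contrast to be set beside that at day 0. At day 7 no gene (0%) passed edgeR's adjusted threshold for KD-Nap1l2-7d over NC-7d, while 1057 (7.85%) had an unadjusted p under 0.05. The difference between the contrasts also gave no call (0%) in edgeR, with 948 genes (7.04%) at an unadjusted p under 0.05, and 98 calls (0.757%) in DESeq2. The smallest adjusted p for that difference among the 11 called genes was 0.109, for Ccbe1, whose log2 fold change was -3.88 at day 0 and -0.56 at day 7 (336 and 363 counts in NC-7d, 221 and 247 in KD-Nap1l2-7d). Kcns3 returned counts in all 4 day 7 libraries, 37 and 33 in NC-7d and 22 and 29 in KD-Nap1l2-7d. Class II transcripts were low in each of them: H2-Ab1 had 7 and 10 counts in NC-7d and 5 and 8 in KD-Nap1l2-7d.

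The level of the interferon lists also differed between libraries of the same label at day 7. The median of the interferon-stimulated genes, relative to the NC mean at day 0, was -0.27 and 0.27 in NC, -1.16 and -2.02 in KD-Nap1l2, 0.21 and -1.20 in NC-7d, and -0.28 and -0.10 in KD-Nap1l2-7d. NC-7d replicate 2 thus lay at the level of KD-Nap1l2 replicate 1, and both KD-Nap1l2-7d libraries lay near the controls of day 0. Isg15 showed this in single values, with 6385 and 1050 counts in NC-7d and 3332 and 4531 in KD-Nap1l2-7d. The gap between the NC-7d libraries was thus about as large as the difference between the groups at day 0, and the part of such differences between libraries of 1 label in the day 0 values was not tested. The Atf4 list differed in the same direction at both times, with medians of 0.73 at day 0 and 1.03 at day 7, where 21 of the 27 genes were higher at an unadjusted p under 0.05. Its level was 0.56 and -0.03 in NC-7d and 1.52 and 1.0 in KD-Nap1l2-7d.

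**Figure D4:**
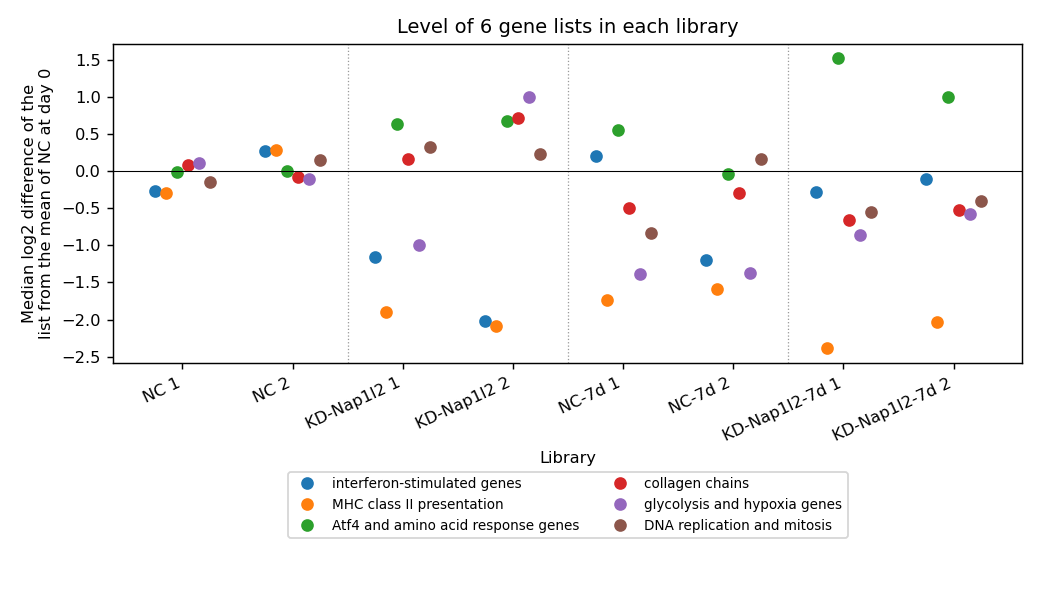
Median log2 difference from the mean of the NC libraries at day 0 (vertical) of 6 gene lists in each of the 8 libraries (horizontal), 1 point per list and library. The interferon-stimulated genes are at -1.16 and -2.02 in KD-Nap1l2 and at 0.21 and -1.20 in NC-7d, and the glycolysis and hypoxia genes are at -0.99 and 1.0 in KD-Nap1l2.

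**Figure D5:**
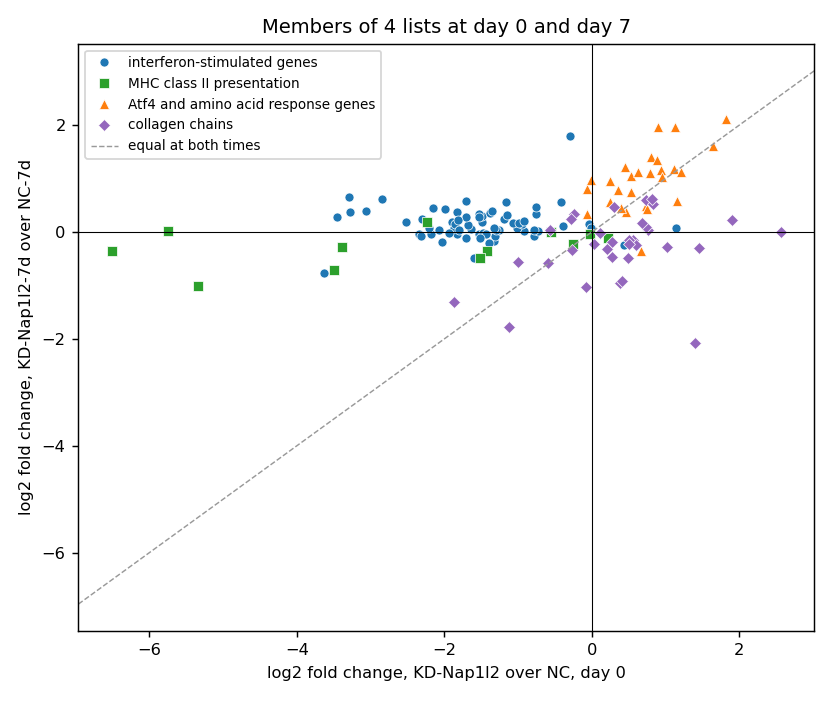
Log2 fold change of KD-Nap1l2 over NC at day 0 (horizontal) against that of KD-Nap1l2-7d over NC-7d (vertical) for the tested members of 4 lists, with a dashed line where both are equal. Interferon-stimulated genes spread along the horizontal axis near 0 at day 7 (median 0.14), while the Atf4 list lies mostly above 0 at both times.

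The transcript table was tested in the same way to see which isoforms carried the differences. Of 38878 transcripts tested out of 57714 none passed the adjusted threshold in edgeR (0%), 2211 (5.69%) had an unadjusted p under 0.05 and DESeq2 called 1300. For Ccbe1, H2-Ab1, H2-Aa, H2-Ea-ps, Angpt2 and Kcns3 a single annotated transcript held all counts in the libraries that had any, so that gene and transcript values were the same measurement. Col2a1 was split between isoforms: NM_031163.3 took 25.5% and 18.7% of its counts in NC against 49.7% and 30.05% in KD-Nap1l2, and the rest lay mainly in NM_001113515.2. Igf2 counts came mostly from NM_001122737.2, which held 85.3% and 89.8% in NC against 82.1% and 66.7% in KD-Nap1l2. For Phactr1, XM_006516911.3 held 58.6% and 51.7% of its counts in NC against 11.2% and 0% in KD-Nap1l2, although that transcript had an adjusted p of 0.872. Isoform shares are estimates by the authors' quantification and are uncertain where isoforms share most of their exons.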

How the data were processed

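RNA from C3H10T1/2 cells was sequenced by the authors, and their deposited tables give RSEM expected counts and FPKM per gene and per transcript on GRCm38.p6. The submitters' processing notes name RSEM, Bowtie2 and BWA, with versions not given in the sources used here. FPKM, deposited by the authors, is inferred from the column's values. Tables of the authors' own comparisons (fold changes and p-values) were not used. Expected counts, which are not whole for 41.1% of genes and sum to between 17420284 and 19427359 per library over all 8, were rounded. Genes were kept by filterByExpr, scaled by TMM and fitted with edgeR 4.0.16's quasi-likelihood test (R 4.3.3) over all 8 libraries with 4 groups of 2, which share 1 estimate of the spread. Standard errors are the fold change divided by the root of the F statistic, with the Benjamini-Hochberg adjustment run over all genes tested (threshold 0.05). With 2 libraries a group, no exact permutation test can reach that threshold. Alternatives used DESeq2 1.42.0 and limma 3.58.1 on log2(FPKM + 1) or log2(FPKM + 0.1), other filters and scalings, a replicate block, and each library left out. The scripts were tested on simulated counts. Named genes were the called genes, the NAP1 family, the 12 genes a direction with the smallest p among genes averaging 50 normalised counts or more without overlap, the called members and the 3 with the smallest p of each list, genes at 3 counts or fewer in 1 group and at least 30 in the other, and 5 genes that the study measured (Cdkn1a, Trp53, Bcl2, Mmp3 and Il6). Any other gene was named after its values were seen. The lists and rules were chosen with earlier results of these data known. Intervals and floors cover counting error only.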

Additional observations from a re-analysis of the deposited data

Results flagged for a closer look

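For 8 of the 98 tested genes that were named, the groups did not overlap at either time and differed in opposite directions at day 0 and day 7. Each of the 8 also had an unadjusted p under 0.05 for the difference between the contrasts, by the interaction term of edgeR's quasi-likelihood test. Further named genes had such a p and opposite signs, but overlapped at day 7. Among them were Cd74 (-2.23 at day 0 and 0.18 at day 7) and Irf1 (-1.33 and 0.16). None of the 8 passed the adjusted threshold. The log2 fold change at day 7 minus that at day 0 was 1.47 for Ccl2 (-1.28 at day 0 and 0.19 at day 7, adjusted p = 0.343), 1.20 for Ccl7 (-0.84 and 0.36, adjusted p = 0.343), 2.69 for Cfb (-2.13 and 0.56, adjusted p = 0.343) and 3.45 for Oas3 (-2.84 and 0.61, adjusted p = 0.439). It was -1.60 for Ppp1r1b (1.28 and -0.32, adjusted p = 0.343), -1.63 for Sox6 (1.31 and -0.33, adjusted p = 0.343), -1.20 for Plat (0.90 and -0.30, adjusted p = 0.407) and -0.63 for Pfkm, a glycolytic enzyme (0.40 and -0.23, adjusted p = 0.685).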

How the results depend on the processing

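The 11 genes called before induction were 460 in DESeq2, 160 with no filter on low counts, 33 by limma on log2(FPKM + 1), 18 on log2(FPKM + 0.1), 4 with at least 10 counts in every library, 4 by limma voom, 4 with the replicate block and 0 with only the 4 day 0 libraries, where 1494 genes had an unadjusted p under 0.05. RLE scaling and a 2-fold minimum each gave 11. All 11 remained called by DESeq2, with no filter and on both FPKM scales. Leaving out a library gave 0 to 562, and the cause of that range was not tested. Replicate numbers did not pair the libraries (correlations of the replicate differences -0.06 to 0.10), so the block tests a shared number only. The difference between the contrasts, with 0 calls, gave 98 in DESeq2, 1 with no filter and 0 to 19 with a library left out. Transcripts, with 0 calls, gave 1300 in DESeq2. Without each day 0 library in turn, the interferon and MHC members lower at an unadjusted p ranged from 69 to 113, the Atf4 members higher from 5 to 9 and the collagen chains higher from 5 to 13. Log2 fold changes that turned sign with a library left out ranged from -0.53 to 1.30 for Nap1l2, -0.014 to 0.071 for Nap1l4, -0.55 to 1.86 for Slc2a1 (adjusted p = 0.00791 at 1.86, without KD-Nap1l2 replicate 1), -0.32 to 0.13 for Trp53, -0.12 to 0.11 for Bcl2 and -0.61 to 0.10 for Mmp3. Bcl2 was also 0.00571 on log2(FPKM + 1) and 0.00600 on log2(FPKM + 0.1). Depth limits statements on genes near the floor of 3 counts, Nap1l2 among them.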

Other observations

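3 genes of the cornified epidermis, named after their values were seen, had counts in some control libraries only. Krt1 had 17 and 14 counts in NC, 115 in NC-7d replicate 1 and 0 in each of the other 5 libraries. Lor had 18 and 19 counts in NC, 40 in NC-7d replicate 1 and 0 in the others, and Lce1b had 18, 21 and 17 in the same 3 libraries and 0 in the rest. Krt5, a basal keratin, had 54 counts in NC-7d replicate 1 and at most 11 elsewhere, with 11 and 5 in NC against 3 and 1 in KD-Nap1l2. Krt14 did not share the pattern, with 3 and 9 counts in NC against 9 and 2 in KD-Nap1l2, and 20 in NC-7d replicate 1.

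LOC102639653 had 329 counts in KD-Nap1l2 replicate 1 and 0 in the other 3 day 0 libraries, and gave the highest log2 fold change of all genes tested, 10.34, with a standard error of 4.20 (adjusted p = 0.349).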
